A study of Mus musculus with 6 samples.

Results

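The SLC25 family is the largest group of transporters in the mitochondrial inner membrane, and its messenger RNAs were followed here in mouse hippocampus. Members were the rows of the expression table whose gene symbol is Slc25a followed by a number, together with the mitochondrial pyruvate carrier subunits Mpc1 and Mpc2, the uncoupling protein gene Ucp2 and the carrier-related genes Mtch1 and Mtch2. The rule found 52 of the 55414 genes in the table. RNA was sequenced from 6 hippocampus samples, 3 from mice treated with CerM and 3 from mice treated with vehicle, named below as replicates 1 to 3 of each group. What CerM stands for, how much was given and for how long are absent from the labels, as are strain, sex and age. The sample titles call the libraries of a group biological replicates, without saying whether each is a single mouse or a pool. The series title names ceramides, corticosterone-induced depression and mitochondrial function as the setting. Values are in TPM, a unit that corrects each transcript for its length and sums to nearly the same amount in every library, so levels can be compared between genes. TPM keeps no sequencing depth, and the counting error of each value is unknown.

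SLC25 carriers are made in the cytosol, imported into mitochondria and inserted into the inner membrane, where most swap a metabolite of the matrix for a metabolite of the cytosol. Through them ADP and phosphate reach ATP synthase, ATP leaves, reducing equivalents and amino acids cross between cytosol and matrix, and cofactors made outside enter. In neurons and glia the aspartate, glutamate and pyruvate steps tie mitochondrial fuel use to the handling of the transmitter glutamate. The pyruvate carrier belongs to a separate protein family, and Mtch1, Mtch2 and Slc25a46 encode relatives that sit in the outer membrane.

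The hippocampal identity of the samples was checked against 8 markers of hippocampal neurons, and all 8 were present, with a summed level of 460 to 505 TPM in CerM and 321 to 525 TPM in vehicle. Vehicle replicate 1 had the lowest sum, and its 7 neocortex markers summed to 287 TPM, against 130 to 131 TPM in the other 5 libraries. The 8 oligodendrocyte markers summed to 3871 TPM in vehicle replicate 1, against 5915 to 7037 TPM in the other 5. Choroid plexus markers summed to 10120 and 11929 TPM in CerM replicates 1 and 3 and 16987 TPM in vehicle replicate 3, against 347 to 432 TPM in the rest. Fat tissue markers summed to 430 TPM in CerM replicate 3 and to at most 2.53 TPM elsewhere. The sum of 8 neuronal markers did not overlap between the groups, at 4109 to 4254 TPM in CerM and 4278 to 4950 TPM in vehicle, but each of the 8 markers overlapped and 4 had the higher mean in CerM. Without Snap25, the most abundant of them, the sums overlapped, at 2205 to 2599 TPM in CerM and 2402 to 2430 TPM in vehicle, a setting chosen after seeing the data. In bulk tissue, fewer cells of a type and less RNA per cell cannot be told apart.

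Carrier messages covered a wide span of abundance. The 52 members together took 0.389% to 0.424% of each library's TPM. Of these genes, 9 had a mean of at least 100 TPM and held 76.9% of the family's TPM, 25 lay between 10 and 100 TPM, 11 between 1 and 10 TPM, and 7 below 1 TPM. Those 9 genes encode the outer membrane relative Mtch1, both somatic ADP/ATP carriers, the phosphate carrier, the pyruvate carrier subunit Mpc1, the glutamate carrier Slc25a22, the ATP-Mg/phosphate carrier Slc25a23, the oxoglutarate carrier Slc25a11 and the aspartate/glutamate carrier Slc25a12. At the top of the order, the ranges over the 6 libraries overlapped for Mtch1 (544 to 676 TPM), Slc25a4 (541 to 609 TPM) and Slc25a3 (525 to 581 TPM). Slc25a5, next at 397 to 461 TPM, lay below all 3 in every library, and Mpc1 followed at 250 to 274 TPM.

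**Figure D1:**
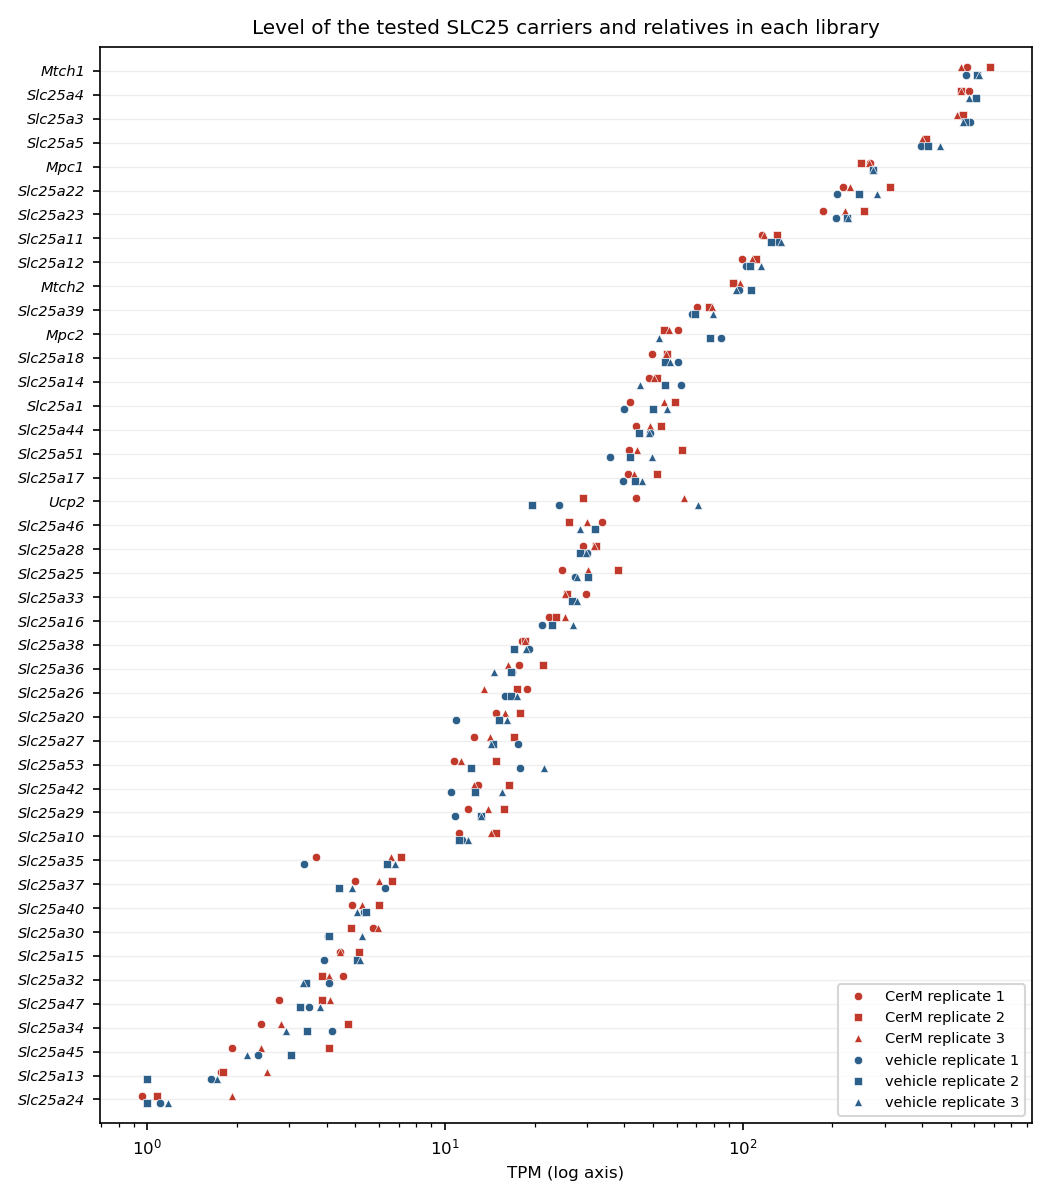
TPM on a log axis for 44 of the 45 members with a mean of at least 1 TPM, ordered by mean, with 1 point per library (red for CerM, blue for vehicle, a marker shape for each replicate). Points of both groups mix on nearly every line, and Ucp2 spreads most among the genes above 10 TPM, from 19.6 to 70.9 TPM.

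No carrier gene changed between CerM and vehicle hippocampus by the test used. Of the 52 members, 45 had a mean of at least 1 TPM and were tested, and limma called 0 of them at an adjusted p below 0.05, where it called 0% of the 14916 genes tested. At an unadjusted p below 0.05 there were also 0 members, against 2.7% of all tested genes. The adjusted p-values of the members ran from 0.989 to 0.999 (limma, Benjamini-Hochberg over all tested genes). Log2 fold changes, given as CerM over vehicle on the scale of log2(TPM + 1), ran from −0.43 for Slc25a53 to 0.41 for Ucp2 with a median of 0.01, where the median over all tested genes was 0.03. The median of the members was −0.02 with median-ratio scaling and −0.02 with array weights. In these settings the medians over all tested genes were 0.002 and −0.009.

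The data bound most differences rather than show them to be absent. The 95% confidence interval lay within 2-fold of TPM + 1 for 44 of the 45 members (90.2% of all tested genes), the exception being Ucp2, and within 1.5-fold for 34 (63.7% of all tested genes). The groups did not overlap for 3 members. Slc25a4 and Mpc1 were lower in every CerM library than in any vehicle library, 2 of 45 members where 4.04% of all tested genes did the same. Slc25a13 was higher in every CerM library, 1 of 45 where 3.26% of all genes did the same. These shares lie near those of all genes.

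The direction of the differences was described by abundance. Of the 9 members with a mean of at least 100 TPM, 7 were below 0 (median log2 value −0.06), and 65% of all tested genes at that level lay below 0, with a median of −0.05. Of the other 36 tested members 12 lay below 0, with a median of 0.07, beside 38.6% and a median of 0.05 for all tested genes of 1 to 100 TPM. In all, 19 of 45 members lay below 0, against 41.2% of all tested genes. Median-ratio scaling of the libraries put 25 of 45 below 0, beside 49.5% of all tested genes. Array weights also put 25 of 45 below 0, beside 52.0% of all tested genes. Leaving out 1 library moved the count between 14 (without CerM replicate 1) and 28 (without CerM replicate 2). The shares of all tested genes in these 2 settings were 36.3% and 55.7%.

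**Figure D2:**
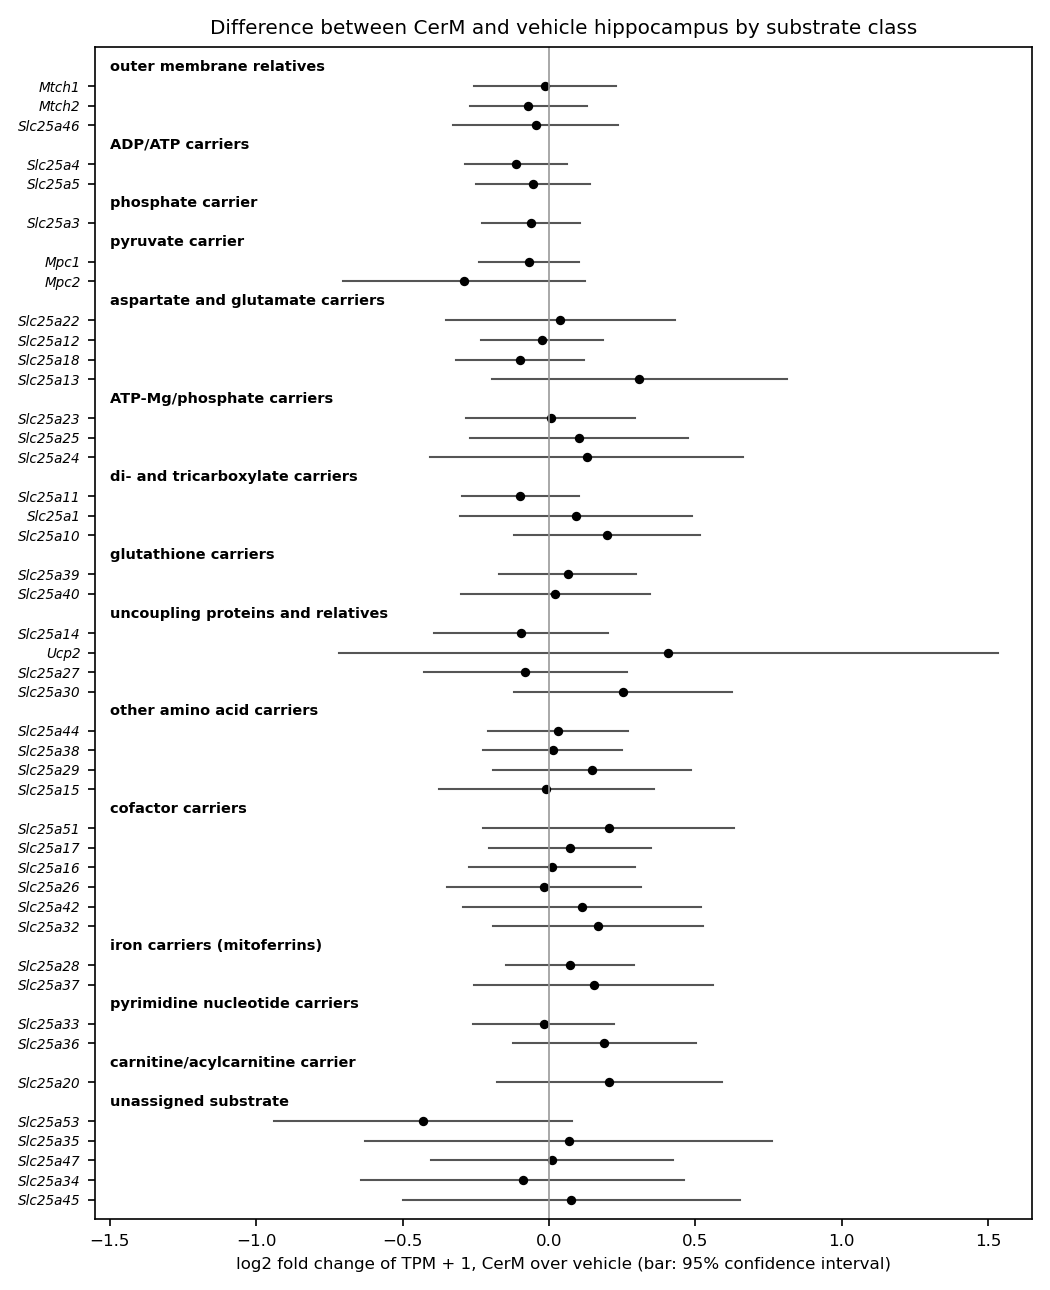
Log2 fold change of TPM + 1 (CerM over vehicle) for 44 of the 45 tested members, grouped by substrate class, with points for the estimates of limma and bars for their 95% confidence intervals. Every bar crosses 0, and the bar of Ucp2 is the longest, from −0.72 to 1.53.

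The ADP/ATP carriers export ATP made in the matrix in exchange for cytosolic ADP. Slc25a4 encodes the isoform abundant in heart, muscle and brain, and Slc25a5 the isoform found in most tissues. Slc25a4 was at 577, 541 and 543 TPM in CerM replicates 1 to 3 and at 609, 609 and 577 TPM in vehicle replicates 1 to 3. CerM replicate 1 and vehicle replicate 3 nearly touched, at 577.07 and 577.49 TPM. The group means were 554 ± 20.4 and 599 ± 18.3 TPM (SD, n = 3 each), and the log2 fold change was −0.11 ± 0.07 (SE; 95% confidence interval −0.29 to 0.06). The summed neuronal markers, Snap25 included, were also lower in every CerM library, and their part in this difference was not tested. Slc25a5 was at 413, 413 and 401 TPM in CerM and 397, 419 and 461 TPM in vehicle, with the CerM values inside the vehicle range. Its log2 fold change was −0.06 (−0.25 to 0.14). The third isoform, Slc25a31, known from testis, stayed at or below 0.30 TPM.

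The coding sequences of the somatic isoforms were compared to show how far apart they are. Over 897 coding bases they were identical at 77.5%, and the longest stretch without a difference was 20 bases. The first 150 bases of each, from the mouse GENCODE M21 transcripts (build GRCm38, chromosome 8 for Slc25a4 and X for Slc25a5), are shown because they hold 32 of the 202 differences, which are in capitals.
Slc25a4: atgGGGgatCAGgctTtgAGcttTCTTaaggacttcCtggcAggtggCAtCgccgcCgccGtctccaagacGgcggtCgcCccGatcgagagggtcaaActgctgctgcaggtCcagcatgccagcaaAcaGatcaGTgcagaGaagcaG
Slc25a5: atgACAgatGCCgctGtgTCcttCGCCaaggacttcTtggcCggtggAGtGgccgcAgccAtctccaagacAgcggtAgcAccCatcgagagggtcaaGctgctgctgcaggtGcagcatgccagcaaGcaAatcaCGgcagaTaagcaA
Slc25a5 held 42.5% ± 0.79 of the summed TPM of both isoforms in CerM against 41.5% ± 2.57 in vehicle (SD, n = 3 each), with a two-sided exact permutation p of 0.6. Vehicle libraries spanned 39.4% to 44.4% and took in all 3 CerM values of 41.7% to 43.3%.

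Slc25a3 brings in the phosphate that ATP synthase needs. It was at 541, 551 and 525 TPM in CerM and 581, 557 and 551 TPM in vehicle. CerM replicate 2 reached just above vehicle replicate 3, at 551.44 against 550.81 TPM, so the groups overlapped. The log2 fold change was −0.06 (−0.23 to 0.11). The ATP-Mg/phosphate carriers adjust the total adenine nucleotide pool of the matrix. Slc25a23 was at 187, 256 and 222 TPM in CerM and 207, 224 and 226 TPM in vehicle, a log2 fold change of 0.01 (−0.28 to 0.29), with CerM replicates 1 and 2 as the lowest and highest of the 6. Slc25a25 had 0.10 (−0.27 to 0.48) around 29.7 TPM, and Slc25a24 0.13 (−0.41 to 0.66) around 1.21 TPM. Slc25a41 was listed at 0 in all 6 libraries.

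The mitochondrial pyruvate carrier, a complex of Mpc1 and Mpc2, admits the end product of glycolysis to the matrix. Mpc1 was at 267, 250 and 266 TPM in CerM and 273.4, 273.9 and 273.8 TPM in vehicle. All CerM values lay below the vehicle values, whose spread was only 0.28 TPM (SD). The log2 fold change was −0.07 ± 0.07 (SE; −0.24 to 0.10). Mpc2 was at 60.7, 54.3 and 56.5 TPM in CerM and 84.4, 78.0 and 52.2 TPM in vehicle. Vehicle replicates 1 and 2 stood above the CerM libraries, while vehicle replicate 3 was the lowest of all 6. The log2 fold change of Mpc2 was −0.29 ± 0.18 (−0.71 to 0.12).

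The table also holds Mpc1-ps, a processed pseudogene of Mpc1, at 0, 0 and 0 TPM in CerM and 37.0, 24.6 and 0 TPM in vehicle. It is annotated at chr12:110858565-110858894 (GRCm38, minus strand), on the strand opposite to Zfp839 and outside the exons of its 3 annotated transcripts, while Mpc1 lies on chromosome 17. Across the 330 bases of the Mpc1 coding sequence the copy differed at 1 position, G41A, counted from 1 at the first base of the start codon with the Mpc1 base first. The first 120 bases of each are shown because they contain that difference, in capitals, and the 289 bases after it are identical.
Mpc1: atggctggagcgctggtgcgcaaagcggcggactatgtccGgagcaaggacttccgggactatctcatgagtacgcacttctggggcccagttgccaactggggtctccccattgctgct
Mpc1-ps: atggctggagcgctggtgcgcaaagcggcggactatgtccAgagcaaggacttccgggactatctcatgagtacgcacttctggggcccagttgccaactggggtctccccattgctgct
How reads were shared between the gene and the copy is not given in the sources used here, so the level of Mpc1 is uncertain. TPM is corrected for length, so reads of the 330-base copy would add less than the copy's TPM to a longer Mpc1 message. The sum of both values may therefore overstate the level of Mpc1 and its difference between the groups. With the copy's TPM added to Mpc1, vehicle libraries stood at 310, 298.5 and 274 TPM, the CerM values were as before, and the log2 fold change was −0.17 ± 0.08 (SE; −0.36 to 0.02), with an unadjusted p of 0.077 and an adjusted p of 0.990 by limma. The libraries with reads given to the copy, vehicle replicates 1 and 2, were also those with the highest Mpc2. A search of the annotation with all 52 members found 17 pseudogene copies of 9 members (at least 90% identity over at least 200 bases), and Mpc1-ps was the only one listed above 1 TPM in any library. Of the others, the highest value was 0.51 TPM, for a copy of Slc25a5, and 12 of the 17 were at 0 throughout.

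**Figure D3:**
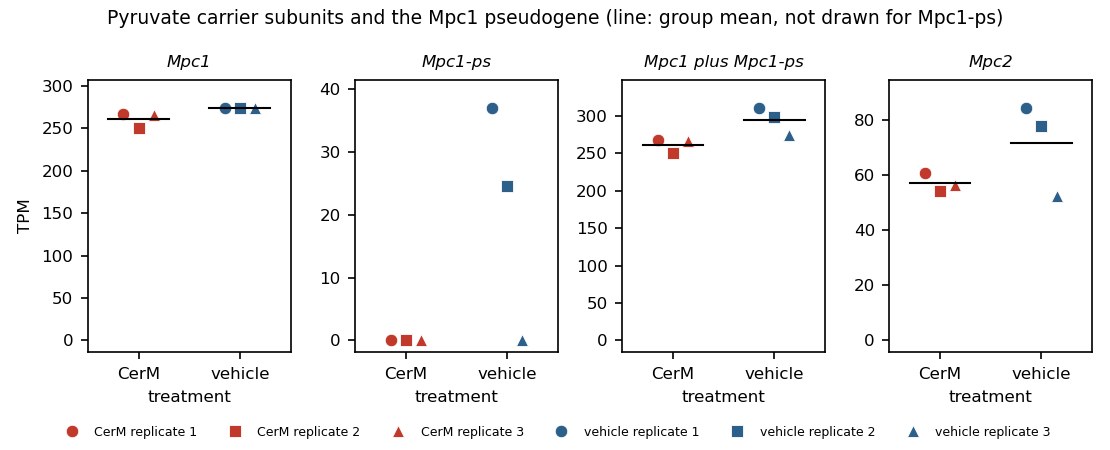
TPM of Mpc1, Mpc1-ps, their sum and Mpc2 by treatment, with 1 point per library and a line for each group mean except for Mpc1-ps, each panel on its own axis from 0. Vehicle replicates 1 and 2 (circle and square) are high for Mpc1-ps and for Mpc2, and vehicle replicate 3 (triangle) lies with or below the CerM libraries in both.

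Mpc1 held 82.1% ± 0.51 of the summed TPM of both subunits in CerM against 79.4% ± 4.02 in vehicle (SD, n = 3 each; two-sided exact permutation p = 0.4). The vehicle share was 76.4% and 77.8% in replicates 1 and 2 and 84.0% in replicate 3, so it lay on both sides of the CerM range of 81.5% to 82.5%.

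The aspartate/glutamate carriers Slc25a12 and Slc25a13 are the exchange step of the malate-aspartate shuttle, which moves reducing equivalents from cytosol to matrix. Slc25a12, the brain and muscle isoform, was at 99.2, 111 and 108 TPM in CerM and 103, 106 and 115 TPM in vehicle. The values mixed, and the log2 fold change was −0.02 (−0.23 to 0.19). Slc25a13, the isoform best known from liver, was at 1.77, 1.79 and 2.52 TPM in CerM and 1.63, 1.00 and 1.72 TPM in vehicle. The groups did not overlap, though CerM replicate 1 and vehicle replicate 3 were close, and the log2 fold change was 0.31 ± 0.22 (SE; −0.20 to 0.81). Its share of the summed TPM of both isoforms was 1.88% ± 0.37 in CerM against 1.33% ± 0.34 in vehicle (SD, n = 3 each). A two-sided exact permutation test gave p = 0.1, its lower limit for groups of 3.

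Slc25a22 and Slc25a18 import glutamate with a proton, and Slc25a18 is known as the astrocytic isoform. Slc25a22 was at 218, 312 and 230 TPM in CerM and 207, 246 and 283 TPM in vehicle, a log2 fold change of 0.04 (−0.35 to 0.43). Its highest value was in CerM replicate 2 and its lowest in vehicle replicate 1. Slc25a18 was at 49.8, 55.9 and 55.5 TPM in CerM and 60.7, 55.0 and 57.1 TPM in vehicle, a log2 fold change of −0.10 (−0.32 to 0.12). CerM replicates 2 and 3 lay above vehicle replicate 2. Slc25a18 held 17.7% ± 2.24 of the summed TPM of both in CerM against 19.2% ± 3.07 in vehicle (SD, n = 3 each; two-sided exact permutation p = 0.6).

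**Figure D4:**
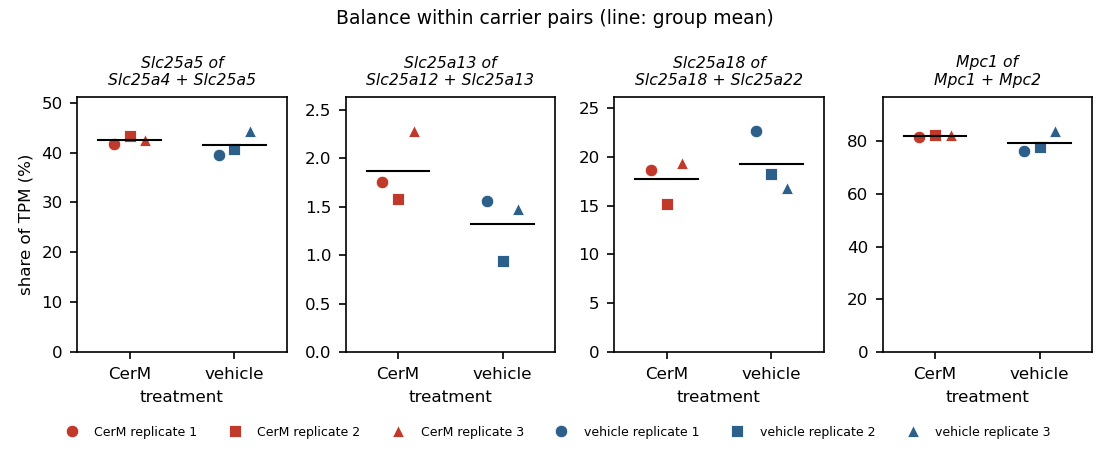
Share of TPM (%) held by 1 gene of each of 4 carrier pairs, by treatment, with 1 point per library and a line for each group mean. The groups are apart only for Slc25a13, whose share is 1.59% to 2.29% in CerM and 0.94% to 1.56% in vehicle.

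Among carriers of di- and tricarboxylates, Slc25a11, which exchanges oxoglutarate for malate in the same shuttle, was at 116, 130 and 118 TPM in CerM and 131, 124 and 134 TPM in vehicle. CerM replicate 2 lay above vehicle replicate 2, and the log2 fold change was −0.10 (−0.30 to 0.10). The citrate carrier Slc25a1, which supplies cytosolic acetyl units for lipid synthesis, was at 41.8, 59.4 and 54.3 TPM against 39.9, 50.0 and 55.5 TPM, a log2 fold change of 0.09 (−0.30 to 0.49). Both groups had their lowest value in replicate 1. The dicarboxylate carrier Slc25a10 had 0.20 (−0.12 to 0.51), with CerM replicate 1 inside the vehicle values. Slc25a21, an oxodicarboxylate carrier, stayed at or below 0.59 TPM.

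The 4 tested carriers of other amino acids had log2 fold changes from −0.01 to 0.15. Slc25a38, which imports glycine for heme synthesis, was at 18.1, 18.6 and 18.6 TPM in CerM and 19.1, 17.1 and 18.7 TPM in vehicle, a log2 fold change of 0.01 (−0.22 to 0.25). Its CerM values fell inside the vehicle range. Slc25a44, a carrier of branched-chain amino acids and the most abundant of this class at a mean of 48.0 TPM, had 0.03 (−0.21 to 0.27). Slc25a29, which carries basic amino acids, had 0.15 (−0.19 to 0.49), and the ornithine carrier Slc25a15 had −0.01 (−0.38 to 0.36). Slc25a2, a second ornithine carrier, was at or below 0.32 TPM. Slc25a20, which passes acylcarnitines to fatty acid oxidation, was at 14.9, 17.9 and 15.9 TPM in CerM and 10.9, 15.2 and 16.1 TPM in vehicle. Vehicle replicate 1 was low and the other values mixed, and the log2 fold change was 0.21 (−0.18 to 0.59).

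The uncoupling proteins and their brain relatives held the member that varied most among those above 10 TPM. Ucp2, known in the brain from microglia and some neurons and tied to control of reactive oxygen, was at 44.0, 29.0 and 63.4 TPM in CerM and 24.2, 19.6 and 70.9 TPM in vehicle. CerM replicates 1 and 3 and vehicle replicate 3 were high and the other libraries low, in both treatments. Its coefficient of variation over the 6 libraries was 51.1%, where the median was 9.68% over the 37 members and 12.3% over the 11043 genes with a mean of at least 5 TPM. The log2 fold change was 0.41 ± 0.48 (SE; −0.72 to 1.53).

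The libraries with high Ucp2 were those with choroid plexus markers. The 7 markers summed to between 10120 and 16987 TPM in these 3 libraries, with Ttr alone at 9123 to 15417 TPM, and to between 347 and 432 TPM in the rest. With the markers as a covariate, a setting chosen after seeing the data, the log2 fold change of Ucp2 was −0.00 ± 0.20 (SE; −0.47 to 0.47). Among the libraries with low marker sums, Ucp2 was at 29.0 TPM in the CerM library and at 24.2 and 19.6 TPM in the vehicle libraries. Among those with high sums it was at 44.0 and 63.4 TPM in CerM and 70.9 TPM in vehicle. Summed microglial markers were at 245 to 300 TPM in CerM and 253 to 275 TPM in vehicle. Fat tissue markers summed to 430 TPM in CerM replicate 3, which also had high Ucp2, and to at most 2.53 TPM elsewhere. The source of the spread of Ucp2 was not tested.

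**Figure D5:**
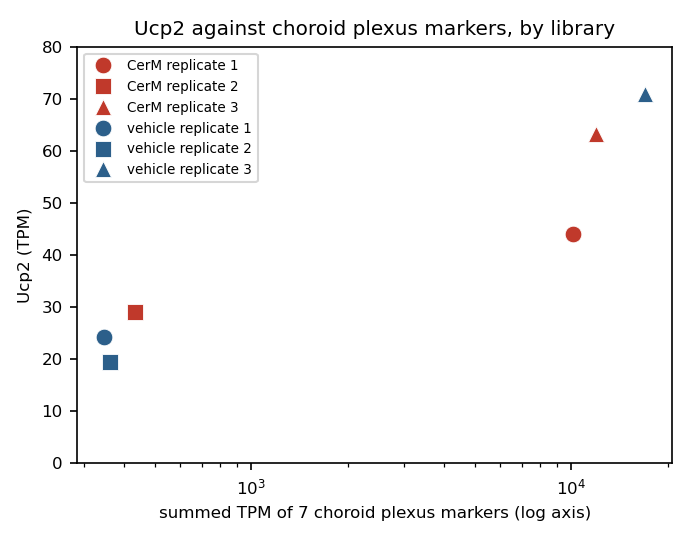
Ucp2 in TPM against the summed TPM of 7 choroid plexus markers on a log axis, with 1 point per library. The 3 libraries with sums of 10120 TPM or more have Ucp2 at 44.0 to 70.9 TPM and the 3 with sums of 432 TPM or less have 19.6 to 29.0 TPM, with both treatments on each side.

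The relatives of the uncoupling proteins varied less than Ucp2, with coefficients of variation of 11.4% for Slc25a14, 12.7% for Slc25a27 and 16.2% for Slc25a30. Slc25a14 was at 48.6, 51.4 and 50.4 TPM in CerM and 62.2, 54.9 and 45.1 TPM in vehicle, a log2 fold change of −0.10 (−0.39 to 0.20), with the CerM values inside the vehicle range. Slc25a27, expressed mainly in neurons, had −0.08 (−0.43 to 0.27) around 15.01 TPM. Slc25a30 was at 5.75, 4.82 and 5.94 TPM in CerM and 4.05, 4.09 and 5.25 TPM in vehicle, a log2 fold change of 0.25 (−0.12 to 0.63). CerM replicate 2 lay below vehicle replicate 3. The highest values of Slc25a30 were in CerM replicates 1 and 3 and vehicle replicate 3, the libraries with high Ucp2. With the choroid plexus markers as a covariate, log2 fold changes were −0.02 for Slc25a14, −0.01 for Slc25a27 and 0.17 for Slc25a30. Of the family members outside the rule, Ucp3 was at 2.24, 1.69 and 2.11 TPM in CerM and 1.42, 0.89 and 1.61 TPM in vehicle, with groups that did not overlap (CerM higher, as for 3.26% of all tested genes) and a log2 fold change of 0.39 ± 0.21 (SE), and Ucp1, the marker of brown fat, stayed at or below 0.15 TPM.

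Of 7 cofactor carriers, 2 lay below 0, beside 38.6% of all tested genes of 1 to 100 TPM, the level of all 7. Their median log2 fold change was 0.07, beside 0.05 for those genes. Limma called 0 of 7, as it called 0% of all tested genes. Slc25a51, which brings NAD into the matrix, was at 41.6, 62.5 and 44.2 TPM in CerM and 36.0, 41.7 and 49.7 TPM in vehicle. CerM replicate 2 was the highest and the other values mixed, and the log2 fold change was 0.20 (−0.22 to 0.63). Other log2 fold changes were Slc25a17 of peroxisomes at 0.07, the coenzyme A carriers Slc25a16 at 0.01 and Slc25a42 at 0.11, the S-adenosylmethionine carrier Slc25a26 at −0.02, and Slc25a32, linked to folate and FAD, at 0.17 on the log2 scale.

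Carriers of pyrimidine nucleotides, glutathione and iron had log2 fold changes from −0.02 to 0.19. Slc25a36, a pyrimidine nucleotide carrier, was at 17.7, 21.4 and 16.3 TPM in CerM and 16.8, 16.6 and 14.6 TPM in vehicle, a log2 fold change of 0.19 (−0.12 to 0.50), and CerM replicate 3 lay below vehicle replicates 1 and 2. Its relative Slc25a33 had −0.02 (−0.26 to 0.22). The glutathione carriers Slc25a39 and Slc25a40 had 0.06 (−0.17 to 0.30) and 0.02 (−0.30 to 0.34). The mitoferrins import iron for heme and iron-sulfur clusters. Slc25a28, the widespread mitoferrin, was at 29.1, 32.1 and 31.7 TPM in CerM and 30.0, 28.4 and 29.7 TPM in vehicle, a log2 fold change of 0.07 (−0.15 to 0.29), and CerM replicate 1 lay between the vehicle values. Slc25a37, the mitoferrin of red blood cell precursors, had 0.15 (−0.26 to 0.56) around 5.53 TPM.

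The outer membrane relatives included the most abundant member. Mtch1 was at 569, 676 and 544 TPM in CerM and 562, 615 and 623 TPM in vehicle, a log2 fold change of −0.01 (−0.26 to 0.23), with CerM libraries at both ends of the range. Mtch2, an insertase for outer membrane proteins, was at 93.3, 93.2 and 98.1 TPM against 97.5, 107 and 94.96 TPM, a log2 fold change of −0.07 (−0.27 to 0.13). CerM replicate 3 lay above vehicle replicates 1 and 3. Slc25a46, which acts in fusion and fission and in the shape of the cristae, had −0.04 (−0.33 to 0.24) around 30.3 TPM.

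Members without a substrate assigned here had means of at most 14.8 TPM. Slc25a53 was at 10.8, 14.9 and 11.3 TPM in CerM and 17.9, 12.2 and 21.5 TPM in vehicle. Vehicle replicates 1 and 3 stood above the CerM libraries and vehicle replicate 2 between them. Its log2 fold change of −0.43 ± 0.22 (SE; −0.94 to 0.08) had the smallest p of the 45 members, an unadjusted 0.087 and an adjusted 0.989 by limma. Slc25a35, Slc25a47, Slc25a34 and Slc25a45, with means of 5.66, 3.55, 3.42 and 2.66 TPM, had log2 fold changes of 0.07, 0.01, −0.09 and 0.08. Slc25a43, Slc25a48 and Slc25a54 were at or below 0.22, 0.19 and 0.04 TPM.

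The highest and lowest values of many members fell in the same few libraries. CerM replicate 2 had the highest value of 19 of the 45 tested members (42.2%), as it did for 41.1% of all tested genes. CerM replicate 1 had the lowest value of 14 members (31.1%, beside 20.2% of all tested genes), and vehicle replicate 1 of 13 (28.9%, beside 32.8%). The carriers that were high in CerM replicate 2 included Slc25a22, Slc25a23, Slc25a1, Slc25a51 and Mtch1, and CerM replicate 2 held 4222 TPM over all members against 3864 and 3906 TPM in the other CerM libraries. Summed over members, CerM had 3997 ± 196 and vehicle 4096 ± 117 TPM (SD, n = 3 each), a difference smaller than the spread within CerM.

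Genes that work beside the carriers were also tested, and 0 were called, as for 0% of all tested genes. Of 12 genes that receive and insert carrier precursors, 10 were below 0, and the list had a median of −0.14 on the log2 scale, beside 41.2% of all tested genes below 0. Groups did not overlap, with CerM lower, for 2 of the 12, beside 4.04% of all tested genes. Timm10, a chaperone of the intermembrane space that escorts carrier precursors, was at 64.7, 74.2 and 77.4 TPM in CerM and 84.3, 88.6 and 93.7 TPM in vehicle. Its groups did not overlap, and the log2 fold change was −0.30 ± 0.10 (SE), with an unadjusted p of 0.019 and an adjusted p of 0.989 by limma. Its partner Timm9 was at 45.9, 45.7 and 47.7 TPM in CerM and 64.0, 58.6 and 48.2 TPM in vehicle, also without overlap. The receptor Tomm20, the most abundant of the list, had −0.01 ± 0.10 (SE). Timm9 is named here after its values were seen.

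All 4 enzymes of the malate-aspartate shuttle lay below 0, with a median of −0.09. All have means of at least 100 TPM, where 65% of all tested genes lay below 0 with a median of −0.05. Mdh1, the cytosolic malate dehydrogenase, was at 1061, 1124 and 1076 TPM in CerM and 1396, 1146 and 1122 TPM in vehicle, a log2 fold change of −0.16 ± 0.10 (SE). CerM replicate 2 and vehicle replicate 3 met at 1124 and 1122 TPM, and vehicle replicate 1 stood apart. Of 14 enzymes and transporters that make or use carrier substrates, 3 lay below 0, beside 41.2% of all tested genes, and the monocarboxylate transporter Slc16a1 was at 0.24 ± 0.16. Among 5 genes of outer membrane channels and partners of the ADP/ATP carrier, 4 lay below 0, against 41.2% of all tested genes, or 65% of those of at least 100 TPM, a level that 3 of the 5 reached. Vdac3 was at 219, 213 and 208 TPM in CerM and 235, 238 and 231 TPM in vehicle, without overlap (CerM lower, as for 4.04% of all tested genes), at −0.13 ± 0.07, and Vdac1, the most abundant, was at −0.08 ± 0.09. Sideroflexins, carriers of serine and related substrates, lay on both sides of 0, with Sfxn3 at −0.08 ± 0.15 and Sfxn2 at 0.23 ± 0.26.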

How the data were processed

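The submitters' processing notes name HISAT2, StringTie, RSEM and the build GRCm39, without versions or roles. The table deposited by the authors holds TPM values with 2 decimals for 55414 genes, 1401 without a symbol. TPM totals ran from 993379 to 995403 per library, and depth is unknown. Columns match the sample titles. No pair of libraries was identical.

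Genes with a mean of at least 1 TPM (14916) entered a linear model of log2(TPM + 1), pseudocount 1, in limma 3.58.1 (R 4.3.3), with a variance trend, two-sided, with Benjamini-Hochberg adjustment over all tested genes. The threshold for a call was 0.05 on the adjusted p. Fold changes understate the change of low genes. Shares within carrier pairs were compared by exact permutation over libraries. The planned permutation test of the summed TPM is left out, since it would test a score over members. The code was tested on simulated data.

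Members, substrate classes and lists were chosen with earlier results of these data known. The tested members are named, and of each other list the most abundant gene and the one with the smallest p, except 1 member and 1 listed gene that are not reported here. Both stay in the counts. Sequences come from GENCODE M21 (GRCm38), an older build than that of the table, and serve only to show and compare sequences (blastn 2.17.0). Python 3.11.15 with pandas 2.3.3 was used.

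Alternatives changed the pseudocount, minimum, scaling, variance model, weights, replicate block and libraries. Chosen after seeing the data were leaving out CerM replicate 3 with vehicle replicate 1, the choroid plexus covariate, the sum of Mpc1 and Mpc1-ps, and the neuronal sum without Snap25.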

Additional observations from a re-analysis of the deposited data

How the results depend on the processing

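In 19 other settings limma called 0 members, with a smallest adjusted p of 0.214 under array weights. Over all tested genes it called 0 in each setting that kept all libraries. Where libraries were left out it called 1 gene, or 8 without CerM replicate 3. Under array weights 6 of 45 members had an unadjusted p below 0.05 by limma, beside 2696 of 14916 genes. Of 45 members, 18 kept their sign throughout and 27 changed it in at least 1 setting, 16 of these with all libraries kept. The cause of these sign changes was not tested, and the lack of counts leaves depth out of every error.

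With the replicate block 0 members were called and 19 lay below 0, beside 41.2% of all tested genes. Same-numbered libraries deviated together with correlations of 0.0083, 0.20 and 0.22, the first of them too low to treat the numbers as pairs.

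Log2 fold changes (for shares, differences in percentage points) changed sign as follows. The median member value was −0.018 with median-ratio scaling and −0.024 with array weights, beside 0.002 and −0.009 over all tested genes. With the setting without CerM replicate 3 and vehicle replicate 1 together, the values were −0.088 for the percent share of Slc25a5 in Slc25a4 plus Slc25a5, 0.0032 for Mtch1, −0.018 for Slc25a22, −0.043 for Slc25a23, −0.012 for Slc25a39, 0.0070 for Slc25a14, −0.078 for Slc25a1, −0.066 for Ucp2, 0.021 for Slc25a33, −0.10 for Slc25a16, 0.084 for Slc25a26, 0.023 for Slc25a27, −0.30 for Slc25a35, −0.079 for Slc25a47, 0.083 for Slc25a34, −0.045 for Slc25a24, 0.025 for Tomm20, 0.10 for Sfxn3 and −0.0069 for Sfxn2. With the setting quantile normalization, the values were 0.083 for Mtch1, 0.019 for Slc25a3, 0.023 for Slc25a5, −0.016 for Slc25a16, −0.019 for Slc25a38, −0.016 for Slc25a35, −0.066 for Slc25a40, −0.073 for Slc25a47, −0.030 for Slc25a45 and 0.027 for Tomm20. With the setting without genes of mitochondrial DNA, the values were 0.0010 for Mtch1, 0.0040 for Slc25a15 and 0.0051 for Tomm20. With the setting choroid plexus markers as a covariate, the values were 0.0088 for Mtch1, −0.00048 for Ucp2, −0.043 for Slc25a16, 0.054 for Slc25a34 and 0.016 for Tomm20. With the setting array weights, the values were −0.073 for Slc25a22, −0.051 for Slc25a23, −0.018 for Slc25a25, −0.082 for Slc25a35, −0.033 for Slc25a40, −0.20 for Slc25a45 and 0.011 for Sfxn3. With the setting median-ratio scaling, the values were −0.030 for Slc25a23, −0.0038 for Slc25a44, −0.023 for Slc25a16, −0.021 for Slc25a38, −0.0086 for Slc25a40 and −0.018 for Slc25a47. 

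Leaving out 1 library at a time gave ranges that cross 0. They were −0.089 to 2.39 for the percent share of Slc25a5 in Slc25a4 plus Slc25a5, −2.73 to 0.22 for the percent share of Slc25a18 in Slc25a18 plus Slc25a22, −0.038 to 0.10 for the median member log2 fold change, −0.11 to 0.050 for Mtch1, −0.10 to 0.0037 for Slc25a5 and −0.12 to 0.15 for Slc25a22. Further ranges were −0.10 to 0.12 for Slc25a23, −0.058 to 0.023 for Slc25a12, −0.22 to 0.010 for Slc25a14, −0.038 to 0.24 for Slc25a1, −0.033 to 0.10 for Slc25a44 and −0.024 to 0.14 for Slc25a17. Further ranges were −0.13 to 0.044 for Slc25a46, −0.054 to 0.25 for Slc25a25, −0.089 to 0.021 for Slc25a33, −0.063 to 0.11 for Slc25a16, −0.034 to 0.042 for Slc25a38 and −0.11 to 0.12 for Slc25a26. Further ranges were −0.19 to 0.018 for Slc25a27, −0.017 to 0.25 for Slc25a42, −0.20 to 0.31 for Slc25a35, −0.044 to 0.078 for Slc25a40, −0.11 to 0.050 for Slc25a15 and −0.076 to 0.14 for Slc25a47. Further ranges were −0.31 to 0.062 for Slc25a34, −0.15 to 0.25 for Slc25a45, −0.049 to 0.24 for Slc25a24, −0.088 to 0.048 for Tomm20 and −0.18 to 0.053 for Sfxn3.

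Leaving out 1 library also moved 17 of the members named by over 1.5 times without a change of sign. Ucp2 went from 0.058 without vehicle replicate 2 to 0.96 without vehicle replicate 3. Slc25a51 went from 0.025 without CerM replicate 2 to 0.32 without vehicle replicate 3, and Slc25a20 from 0.044 to 0.31 without vehicle replicates 1 and 3 in turn. Mpc2 was −0.16 without vehicle replicate 1 and −0.50 without vehicle replicate 3, and the Mpc1 share differed by 1.14 and 4.92 points in the same settings. Slc25a13 was 0.17 without vehicle replicate 2 and 0.39 without vehicle replicate 3, and its share differed by 0.34 points without CerM replicate 3 and 0.69 without CerM replicate 2. Slc25a53 was −0.26 without vehicle replicate 3 and −0.65 without vehicle replicate 2, and Mpc1 −0.038 without CerM replicate 2 and −0.085 without CerM replicate 1. The summed TPM (CerM minus vehicle) was −31.6 without CerM replicate 1 and −211 without CerM replicate 2.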
